A study of Mus musculus with 12 samples.

Results

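The potassium channel genes measured here are the 81 genes whose symbol in the platform annotation starts with Kcn followed by a letter or a digit, out of 18193 genes on the array. They take in the pore-forming subunits of potassium channels and the accessory proteins that travel with them. The noncoding transcripts Kcnmb4os1, Kcnmb4os2 and Kcnq1ot1 carry host gene symbols of this kind and were not counted. The measurements come from B16-F10 cells, an established line of pigmented mouse melanoma cells. The cells were transfected with the empty pMES vector, with pMES carrying chicken FoxD3, or with FoxD3-VP16, in which the activation domain of VP16 stands in place of the C-terminal repression domain of FoxD3. All 3 vectors use the chick beta-actin promoter and make EGFP from the same transcript through an internal ribosome entry site, so the empty vector group also expresses EGFP. The cells were sorted for EGFP 24 h after transfection, and each group has 4 arrays numbered 1 to 4. The labels do not say whether the numbers stand for separate cultures, so each p-value reflects no more than the spread among the arrays, which may be technical. FoxD3 is a transcription factor of the forkhead family that acts in the neural crest, the embryonic source of melanocytes. The design asks which RNAs differ after FoxD3 and whether they differ the same way when its repression domain is exchanged for an activation domain.

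Potassium channels let potassium ions leave or enter the cell along their gradient and so set the resting membrane potential. Voltage-gated channels open on depolarization, calcium-activated channels open when internal calcium rises, inward rectifiers hold the potential near rest, and leak channels with a pair of pore domains per subunit stay open at rest. In melanocytes and melanoma cells, potassium channels have been studied for their part in cell volume, migration and proliferation.

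Every level below is log2(intensity + 16) after quantile normalization, and every change is a difference of such levels between groups, a scale that understates the change of dim genes. A probe set's brightness depends on its own sequence, so levels of different genes are read only against the brightness limit and give no order of RNA amounts. Each gene is represented by its brightest probe set, 45 of the 81 genes having several. Genes whose mean over the 12 arrays was under a log2 level of 5.98, the lowest 40% of all genes, were called dim and left out of the main test.

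Only 12 of the 81 potassium channel genes lay above that limit, and 69 were dim. Of the 22 voltage-gated pore genes, 4 were tested: Kcnd1, Kcnh2, Kcnh3 and Kcnq5. None of the 9 modifier genes was, which are silent subunits that alter other voltage-gated pores. Of the 15 inward rectifiers, Kcnj11, Kcnj13 and Kcnj14 were tested. Of the 12 leak channels, Kcnk2 and Kcnk6 were tested, and of the 8 calcium-activated, sodium-activated and Slo pores only Kcnu1 was. Of the 15 accessory genes, Kcnab2 and Kcnmb4 were tested. The members nearest to the limit were Kcnj14 (mean level 6.11) and Kcnu1 (6.13) above it, and Kcnj6 (5.94), Kcna5 (5.93) and Kcnc2 (5.93) below it. In 8 of the 12 tested genes all 3 group means lay above the limit. Kcnh2, Kcnh3 and Kcnj14 had means under it with FoxD3-VP16 and Kcnu1 with FoxD3, so these genes were tested through the groups in which they were brighter. Of the 69 dim genes, 12 had at least 1 group mean above the limit and 23 had no array above it.

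**Figure D1:**
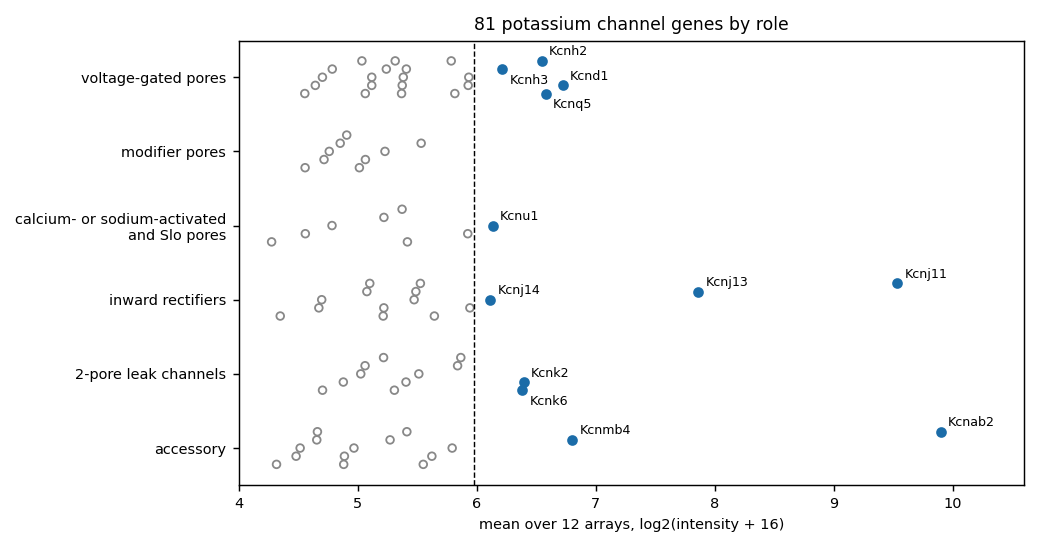
Mean level over the 12 arrays, as log2(intensity + 16), of the 81 potassium channel genes, arranged by the role of the protein and spread vertically only for visibility. Filled points are the 12 tested genes, open points the 69 dim ones, and the dashed line is the limit of 5.98; each point is to be read against the limit only, since brightness does not order RNA amounts between genes, and all 9 modifier pores lie under it.

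The arrays themselves set the precision. Of the variance over all tested genes, 50.1% lay between replicate numbers and 30.8% between vectors. The number 1 arrays differed from the rest: their 18S control had log2 levels of 12.8 to 13.1 against 9.31 to 10.1 on the other 9 arrays, and the 3' Gapdh control exceeded the 5' one by 0.56 to 0.77 against -0.25 to 0.04. No pair of arrays held identical values. The 11 melanocyte markers on the array were all tested, none of 6 endothelial and 6 keratinocyte markers was, and 5 of 8 fibroblast, 3 of 7 leukocyte and 3 of 7 neuron markers were. The summed intensity of the 8 fibroblast markers was 852 to 1179 with the empty vector, 1776 to 2931 with FoxD3 and 1359 to 1743 with FoxD3-VP16. In the same order it was 190 to 1100, 206 to 4769 and 245 to 2132 for the leukocyte markers, and 768 to 1339, 1109 to 1335 and 823 to 1099 for the neuron markers. These sums do not speak for each marker. Col1a1, Col5a1 and Pdgfrb were called higher with FoxD3 than with the empty vector. Col1a2 (-0.72) and Pdgfra (1.21) were not called in that comparison, and Col3a1, Dcn and Lum were dim. Of the leukocyte markers Ptprc, Cd3e, Itgam and Lyz2 were dim, and Laptm5 had an SD of 3.45 over the FoxD3 arrays. The part of the markers in the results below was not tested. In sorted cells measured as a bulk, more cells with an RNA and more RNA per cell cannot be told apart.

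The family as a whole had medians near 0. The median change of the 12 tested genes was 0.13 for FoxD3 against the empty vector, -0.11 for FoxD3-VP16 against the empty vector and -0.09 for FoxD3-VP16 against FoxD3, beside -0.00, -0.02 and -0.03 for all 10916 genes tested. Of the 81 genes, 36 had a higher and 45 a lower mean with FoxD3 than with the empty vector, and 42 were higher and 39 lower with FoxD3-VP16. The comparisons share the empty vector or the FoxD3 arrays, so their values are given side by side and were not correlated.

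Single channel genes were called between the effector domains. Counts among 12 genes are too small to set the family apart from all tested genes. FoxD3-VP16 against FoxD3 was the comparison with calls: 2 of the 12 tested genes passed an adjusted p of 0.05 in limma, where 9.57% of all tested genes did. The inward rectifier Kcnj13 rose and the voltage-gated Kcnh2 fell. With the replicate number as a block in the fit (below, the number blocked) the count was 3, with Kcnj14 lower as well, where 32% of all tested genes passed. In 4 of the 12 genes (Kcnab2, Kcnh2, Kcnj13 and Kcnj14) the 4 arrays of FoxD3-VP16 did not overlap those of FoxD3, a pattern seen in 18.2% of tested genes, and 3 genes had an unadjusted p under 0.05, against 23% of all.

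FoxD3 against the empty vector gave no call among the 12 tested genes, where 4.01% of all tested genes passed. At an unadjusted p under 0.05 there were 2 genes, Kcnh2 and Kcnq5, against 16.1% of all. The same 2 genes had groups that did not overlap, as 11.5% of tested genes did. With the number blocked Kcnh2 passed, where 21% of tested genes did.

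FoxD3-VP16 against the empty vector likewise gave no call among the 12, where 0.595% of all tested genes passed. There were 4 genes at an unadjusted p under 0.05 (Kcnj11, Kcnj13, Kcnj14 and Kcnq5), against 10.3% of all. In 3 genes, Kcnj11, Kcnj13 and Kcnq5, the groups did not overlap, against 5.71% of all. With the number blocked Kcnj13 passed, where 11.1% of all did.

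**Figure D2:**
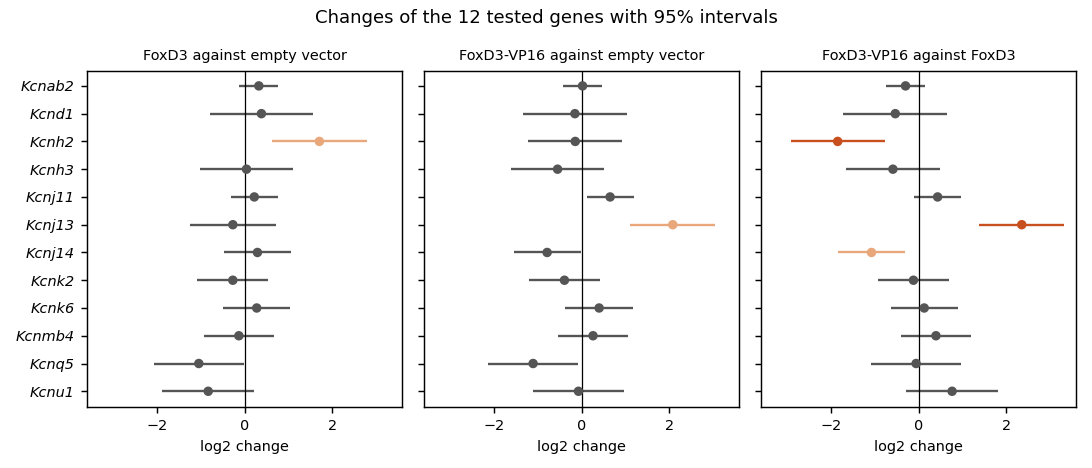
Change on the log2(intensity + 16) scale (points) with its 95% interval (lines) for the 12 tested genes in the 3 comparisons, from limma over 12 arrays without a block. Dark orange marks genes with an adjusted p under 0.05, light orange genes that passed only with the number blocked; Kcnj13 lies farthest right in both comparisons of FoxD3-VP16, and Kcnh2 is displaced in opposite directions in the first and the third panel.

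The promoters of Kcnj13, Kcnh2 and Kcnn4 are shown as examples from the inward rectifier, voltage-gated and calcium-activated classes. Each was called in a fit described below, and other genes called there, such as Kcnn1 and Kcnc2, are not shown. The sequences are RefSeq windows of 300 bases on GRCm38.p6 around the annotated start, written 5' to 3' on the gene's strand. They were searched on both strands for TGTTTA and TGTTTG, core letters of forkhead binding sites, and matches are in capitals. They lie at chr1:87394680-87394979 (minus strand, Kcnj13), chr5:24329542-24329841 (minus strand, Kcnh2) and chr7:24370013-24370312 (plus strand, Kcnn4).
Kcnj13: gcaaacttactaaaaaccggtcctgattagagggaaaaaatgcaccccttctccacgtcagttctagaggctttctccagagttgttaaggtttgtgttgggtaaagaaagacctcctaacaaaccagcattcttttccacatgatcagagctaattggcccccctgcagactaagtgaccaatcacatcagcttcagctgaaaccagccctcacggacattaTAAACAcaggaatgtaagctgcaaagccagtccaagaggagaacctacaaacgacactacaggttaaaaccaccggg
Kcnh2: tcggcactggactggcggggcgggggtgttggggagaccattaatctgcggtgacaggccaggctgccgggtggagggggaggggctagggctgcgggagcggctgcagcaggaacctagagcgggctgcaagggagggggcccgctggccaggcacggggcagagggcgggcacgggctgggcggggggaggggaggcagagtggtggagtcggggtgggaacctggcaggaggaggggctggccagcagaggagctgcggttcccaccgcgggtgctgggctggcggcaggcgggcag
Kcnn4: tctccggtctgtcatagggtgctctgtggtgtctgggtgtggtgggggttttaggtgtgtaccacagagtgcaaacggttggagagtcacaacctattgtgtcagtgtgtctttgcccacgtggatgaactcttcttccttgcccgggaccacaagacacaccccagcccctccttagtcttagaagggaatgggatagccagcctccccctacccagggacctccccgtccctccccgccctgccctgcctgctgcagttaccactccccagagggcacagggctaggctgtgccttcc
The Kcnj13 window holds TGTTTA once, on the reverse strand at position -27, where it reads TAAACA. The other windows shown hold neither core. Among the named genes not shown, Kcnab2, Kcnk13 and Kcnq5 each had a window with TGTTTA and Kcnk5 a window with TGTTTG. The windows of Kcnn1 and Kcnc2 held neither. A match is a description of letters and not a bound site. Of all 32851 promoter windows 13.4% held TGTTTA, and of the 87 windows of the 62 potassium channel genes with an entry 9.2% did. TGTTTG was in 18.2% of all windows and 11.5% of those of the channel genes. The Kcnj13 window had 46% G and C, that of Kcnh2 74.3% and that of Kcnn4 59.7%, against a median of 58% over the channel genes' windows and 52.7% over all.

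Among the inward rectifiers, Kcnj13 carried the largest change of the 12 tested genes in both comparisons of FoxD3-VP16, which share its 4 arrays. Its channel is known from ion-transporting epithelia such as the retinal pigment epithelium, and in zebrafish its gene shapes the pigment stripes. Its level was 8.25, 7.68, 6.42 and 6.67 on empty vector arrays 1 to 4, 8.22, 6.89, 6.49 and 6.34 with FoxD3, and 9.68, 9.24, 9.0 and 9.42 with FoxD3-VP16. The deposited intensities behind these levels ran from 59.7 to 276 with the empty vector, from 54.9 to 274 with FoxD3 and from 516 to 735 with FoxD3-VP16. All 4 FoxD3-VP16 arrays lay above all 8 others, while the empty vector and FoxD3 arrays overlapped. In these latter groups the arrays numbered 1 were the highest.

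The group means of Kcnj13 were 7.26 ± 0.86 (SD, n = 4) with the empty vector, 6.98 ± 0.86 with FoxD3 and 9.33 ± 0.29 with FoxD3-VP16. FoxD3-VP16 exceeded FoxD3 by 2.35 (SE 0.45, 95% interval 1.38 to 3.33), a 5.10-fold difference with an adjusted p of 0.00525 in limma, and was higher in 4 of 4 numbers by 1.46 to 3.09. Against the empty vector the difference was 2.08 (1.10 to 3.05), or 4.22-fold, with an adjusted p of 0.0674, which misses the threshold, and it was higher in 4 of 4 numbers by 1.43 to 2.75. With the number blocked the adjusted p against the empty vector was 0.000416, and without the 3 arrays numbered 1 the change was 2.43 with an adjusted p of 0.00753. FoxD3 itself differed from the empty vector by -0.27 (-1.25 to 0.70), within the spread of the arrays. The vector accounted for 73.9% of the variance of Kcnj13 over the 12 arrays and the replicate number for 20.1%.

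The span of Kcnj13 overlaps that of the protein-coding gene Gigyf2 in RefSeq, and the strand each probe set reads was not checked here. Gigyf2 had group means of 9.47, 9.61 and 9.30 with the empty vector, FoxD3 and FoxD3-VP16, and its change between FoxD3-VP16 and FoxD3 was -0.31 (adjusted p = 0.628 in limma). Kcnj13 is measured by a single probe set, so no other probe set checks it.

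Kcnj14, a strong inward rectifier of the same family, was lowest with FoxD3-VP16. Its level was 6.53, 5.94, 6.35 and 6.30 with the empty vector, 6.48, 6.50, 7.02 and 6.28 with FoxD3, and 4.58, 6.04, 5.89 and 5.44 with FoxD3-VP16. The FoxD3-VP16 arrays lay below all FoxD3 arrays but overlapped those of the empty vector, and 3 of the 4 were under the brightness limit. FoxD3-VP16 against FoxD3 was -1.08 (-1.85 to -0.32) with an adjusted p of 0.0749 in limma, and 0.0314 with the number blocked; in the blocked fit over all 18193 genes it was 0.0512, which is not a call. It was lower in 4 of 4 numbers, with differences from -1.90 to -0.46.

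Kcnj11, the pore of the ATP-sensitive potassium channel, had levels of 9.56, 9.44, 8.74 and 9.24 with the empty vector, 9.68, 10.02, 8.91 and 9.23 with FoxD3, and 9.77, 9.69, 9.96 and 10.14 with FoxD3-VP16. All 4 FoxD3-VP16 arrays lay above the empty vector arrays. The change was 0.65 (0.11 to 1.18), with an adjusted p of 0.357 in limma and 0.0520 with the number blocked, so it was not called. Its other, dimmer probe set gave 0.94. The sulfonylurea receptors Abcc8 and Abcc9, which complete that channel, were dim.

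Among the voltage-gated pores, Kcnh2 was called between FoxD3-VP16 and FoxD3. It encodes a channel of the ether-a-go-go family known from the repolarization of heart muscle and found in several tumours. Its level was 6.10, 5.81, 6.01 and 6.19 on the empty vector arrays, 8.17, 6.95, 7.84 and 7.96 with FoxD3, and 4.15, 5.97, 6.70 and 6.69 with FoxD3-VP16. The 4 FoxD3 arrays lay above all 8 others, and the FoxD3-VP16 and empty vector arrays overlapped. The empty vector mean, 6.03 ± 0.16 (SD, n = 4), and the FoxD3-VP16 mean, 5.88 ± 1.20, sat at the brightness limit, against 7.73 ± 0.54 with FoxD3.

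FoxD3-VP16 against FoxD3 was -1.85 for Kcnh2 (SE 0.50, -2.93 to -0.78), with an adjusted p of 0.0336 in limma. No fold is given, since the FoxD3-VP16 mean lay under the brightness limit and its array 1 near the level of 4 that an intensity of 0 gives before normalization. The difference was -4.02 on the arrays numbered 1 and -0.98 to -1.27 on the other numbers; without the arrays numbered 1 it was -1.23, with an adjusted p of 0.0345. The call was lost without FoxD3 array 1, 3 or 4 (adjusted p 0.0772, 0.0908 and 0.1005) and without FoxD3-VP16 array 2 (0.0680). FoxD3 against the empty vector was 1.70 (0.63 to 2.78), higher in 4 of 4 numbers by 1.14 to 2.08. Its adjusted p was 0.0807 in limma, 0.0159 with the number blocked and 0.0157 without the arrays numbered 1. FoxD3-VP16 differed from the empty vector by -0.15 (-1.23 to 0.93), within the spread. The span of Kcnh2 overlaps the noncoding gene Gm15589 in RefSeq, and it has 1 probe set.

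Kcnq5, a subunit of the slow M-type current that damps excitability, had lower means with both transgenes by its brightest probe set but was not called. The levels were 7.90, 7.04, 6.95 and 7.31 with the empty vector, 4.87, 6.88, 6.71 and 6.54 with FoxD3, and 5.23, 6.68, 6.79 and 6.06 with FoxD3-VP16. Both transgene groups lay below the empty vector group, and the arrays numbered 1 were the lowest of each. The changes were -1.05 (-2.07 to -0.03, adjusted p = 0.294) and -1.11 (-2.14 to -0.09, adjusted p = 0.423) in limma, and neither passed when the number was blocked (0.0961 and 0.108). On the arrays numbered 1 the FoxD3 difference was -3.02, against -0.16 to -0.77 on the other numbers; without FoxD3 array 1 the change was -0.60, and without all 3 arrays numbered 1 the changes were -0.43 and -0.65. The gene's other probe sets gave changes of 0.05 and -0.00 with FoxD3, where the probe sets therefore disagree, and of -0.22 and -0.48 with FoxD3-VP16, in the direction of the brightest one.

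Kcnd1, a pore of the rapidly inactivating A-type current, and Kcnh3, a neuronal relative of Kcnh2, showed no call. Kcnd1 had levels of 5.05, 7.30, 6.85 and 7.39 with the empty vector and 5.11, 6.87, 6.85 and 7.11 with FoxD3-VP16, against 7.68, 6.95, 6.61 and 6.86 with FoxD3. The arrays numbered 1 were the lowest with the empty vector and FoxD3-VP16 and the highest with FoxD3. Kcnh3 ran from 5.90 to 6.87 with the empty vector, 5.64 to 6.95 with FoxD3 and 4.34 to 6.69 with FoxD3-VP16, so its groups overlapped.

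The leak channels varied more with the replicate number than with the vector. Kcnk2, a mechanosensitive leak channel, ran from 6.50 to 6.72 with the empty vector, 5.59 to 6.76 with FoxD3 and 5.28 to 6.96 with FoxD3-VP16, and the number accounted for 63.9% of its variance against 12.3% for the vector. Kcnk6, a weak inwardly rectifying leak channel, had 63.5% and 14.0%. Its changes were 0.27 with FoxD3 (-0.50 to 1.04) and 0.40 with FoxD3-VP16 (-0.37 to 1.16). Neither leak channel passed the test in any comparison, with or without the block.

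Kcnu1, the Slo family channel known from sperm, had levels of 7.07, 6.63, 5.66 and 6.40 with the empty vector and 4.46, 6.58, 5.41 and 5.96 with FoxD3. These groups overlapped, and the change of -0.84 (-1.88 to 0.21) had an adjusted p of 0.445 in limma. The difference was -2.61 on the arrays numbered 1 and -0.05 to -0.44 on the other numbers.

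Neither accessory subunit was called in any comparison. Kcnab2, the cytoplasmic beta subunit that binds Shaker-type pores, had levels of 10.17, 10.19, 9.42 and 9.37 with the empty vector, 10.08, 10.23, 10.10 and 10.02 with FoxD3, and 9.50, 9.99, 9.82 and 9.90 with FoxD3-VP16. The FoxD3-VP16 arrays all lay below the FoxD3 arrays, by a mean of -0.30 (-0.75 to 0.14, adjusted p = 0.434 in limma). Kcnmb4, a beta subunit of the large-conductance calcium-activated channel, changed by -0.13 with FoxD3 (-0.94 to 0.67) and 0.26 with FoxD3-VP16 (-0.55 to 1.06); the number accounted for 61.4% of its variance.

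**Figure D3:**
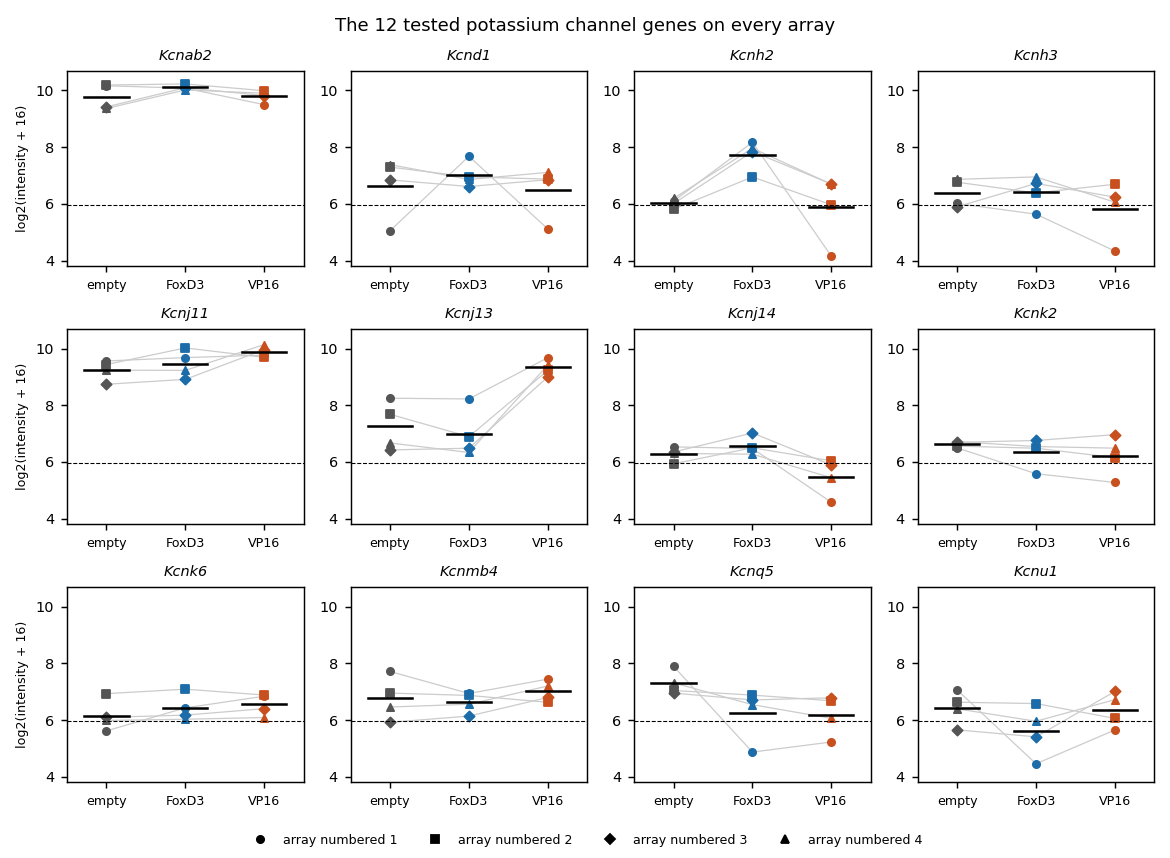
Level on every array, as log2(intensity + 16), of the 12 tested potassium channel genes with the empty vector, FoxD3 and FoxD3-VP16 (VP16). Marker shape gives the replicate number, grey lines join arrays of the same number, black bars are group means (n = 4) and the dashed line is the brightness limit of 5.98; the FoxD3-VP16 arrays of Kcnj13 and the FoxD3 arrays of Kcnh2 stand above the other groups.

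Several of the dim genes stood out only in 1 group. Because a mean over all arrays removes a gene that is bright in 1 group only, the same fit was also run over all 18193 genes. FoxD3 against the empty vector then called 2 of the 81 genes, where 1.92% of all genes passed, and 3 with the number blocked, where 10.9% passed. FoxD3-VP16 against the empty vector called none in limma, where 0.258% passed, and 2 with the block, where 5.23% passed. FoxD3-VP16 against FoxD3 called 4, where 4.74% passed, and 5 with the block, where 17.4% passed. An unadjusted p under 0.05 was found in 12, 9 and 7 of the 81 genes for FoxD3 and for FoxD3-VP16 against the empty vector and for FoxD3-VP16 against FoxD3, beside 11.9%, 7.87% and 16% of all genes. Groups that did not overlap were found in 7, 6 and 9 of the 81 genes in that order of comparisons, against 8.29%, 4.41% and 12.4% of all genes. The dim genes described next (Kcnn4, Kcnn1, Kcnc2, Kcna5, Kcnk13 and Kcnk5) were chosen after their values were seen. Kcnn4 was also among the genes given whatever their values, a choice made with earlier results of these data known.

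The calcium-activated channels Kcnn4 and Kcnn1 were both higher with FoxD3. Kcnn4, the intermediate-conductance channel known from red cells, lymphocytes and migrating tumour cells, had levels of 4.48, 5.19, 5.47 and 5.03 with the empty vector. They were 6.14, 7.14, 7.65 and 7.54 with FoxD3 and 5.97, 6.25, 4.63 and 5.57 with FoxD3-VP16. The FoxD3 arrays all lay above the empty vector arrays, and FoxD3 array 1 lay below FoxD3-VP16 array 2.

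In the fit over all genes, Kcnn4 rose with FoxD3 by 2.07 (SE 0.43) with an adjusted p of 0.0225 in limma. FoxD3-VP16 against FoxD3 was -1.51, with an adjusted p of 0.0649, and 0.0222 with the number blocked. Its dimmer probe set gave 0.70 for FoxD3 against the empty vector. That probe set had group means of 5.15 to 5.85, all under the brightness limit, so it cannot check the change. Since all 4 empty vector levels lay under the brightness limit, the size of the change is uncertain.

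Kcnn1, a small-conductance channel of neurons, had levels of 4.50, 4.56, 5.47 and 4.15 with the empty vector, 6.21, 6.86, 7.24 and 7.16 with FoxD3, and 5.32, 4.41, 4.32 and 4.26 with FoxD3-VP16. All FoxD3 arrays lay above all 8 others. In the fit over all genes it rose with FoxD3 by 2.19 (SE 0.38, adjusted p = 0.00635 in limma). It was lower with FoxD3-VP16 than with FoxD3 by -2.29 (adjusted p = 0.00251). The second probe set of Kcnn1 gave changes in the same directions, 1.48 with FoxD3 and -1.44 between FoxD3-VP16 and FoxD3. All its levels outside the FoxD3 group by the brightest probe set lay under the brightness limit, so the sizes are uncertain.

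Kcnc2, a fast voltage-gated channel of rapidly firing neurons, was highest with FoxD3-VP16. Its levels were 4.49, 6.24, 5.88 and 5.58 with the empty vector, 4.38, 5.28, 4.95 and 5.17 with FoxD3, and 7.31, 6.97, 7.44 and 7.44 with FoxD3-VP16. The FoxD3-VP16 arrays lay above all others, as they did for Kcnj13. FoxD3-VP16 exceeded FoxD3 by 2.34 (SE 0.39, adjusted p = 0.00251 in limma over all genes). Against the empty vector it was higher by 1.74, with an adjusted p of 0.105, and 0.0117 with the number blocked. Kcnc2 has 1 probe set, and all its FoxD3 levels lay under the brightness limit, so the sizes are uncertain.

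In Kcna5, Kcnk13 and Kcnk5 the FoxD3 arrays did not overlap the empty vector arrays, but no call was made. Kcna5, a voltage-gated channel of heart and smooth muscle, had 4.42 to 5.84 against 5.92 to 7.02 with FoxD3, a change of 1.07 (adjusted p = 0.392 in limma over all genes). Kcnk13, a leak channel, had 4.13 to 5.95 against 6.34 to 6.75, a change of 1.34 (adjusted p = 0.300), and its other probe set gave 0.09. Kcnk5, an acid-sensitive leak channel, had 4.16 to 6.23 against 6.30 to 6.76, a change of 1.10 (adjusted p = 0.295), and its other probe set gave -0.58. For the last 2 genes these other probe sets had group means of 4.45 to 5.03, all under the brightness limit, so they cannot check the changes.

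**Figure D4:**
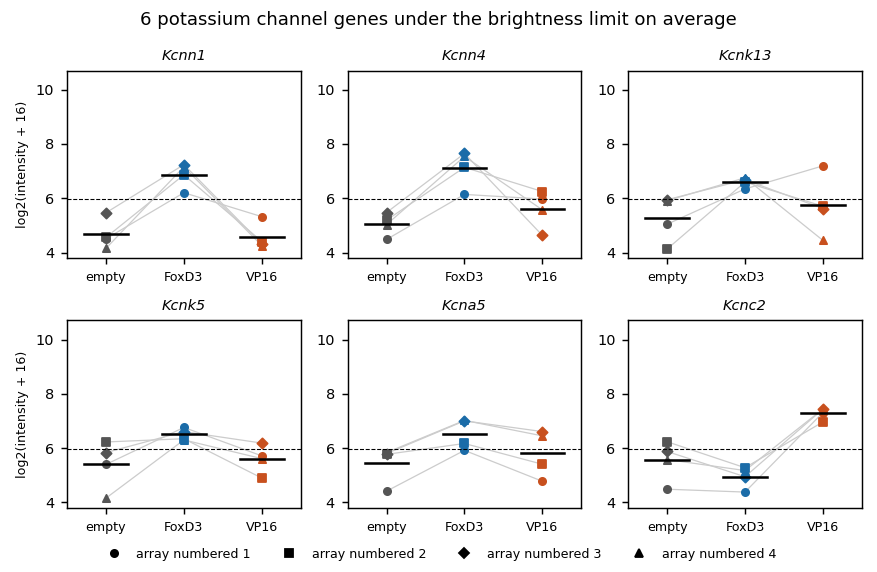
Level on every array, as log2(intensity + 16), of 6 potassium channel genes whose mean over all arrays lay under the brightness limit of 5.98 (dashed line); markers, grey lines and bars are as in the plot of the 12 tested genes. Kcnn1 and Kcnn4 pass the limit mainly with FoxD3 and Kcnc2 with FoxD3-VP16, where all 4 arrays of Kcnc2 lie between 6.97 and 7.44.

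Kcna3, Kcnma1, Kcnj10 and Kcnh1, given whatever their values, were dim. Kcna3, the lymphocyte voltage-gated channel, ran from 5.44 to 5.93 with the empty vector, 4.63 to 6.07 with FoxD3 and 4.38 to 6.11 with FoxD3-VP16. Kcnma1, the pore of the large-conductance calcium-activated channel, ran from 4.12 to 5.50, 4.94 to 5.89 and 4.13 to 6.39. Kcnj10, the glial inward rectifier, ran from 4.43 to 5.58, 4.34 to 5.56 and 4.56 to 6.11. The groups of these genes overlapped. Kcnh1, an ether-a-go-go channel studied in many tumours, ran from 5.44 to 6.04, 5.40 to 5.65 and 4.56 to 5.22, with FoxD3-VP16 below both other groups. Its change against the empty vector, -0.94, was not called (adjusted p = 0.328 in limma over all genes), and its other probe set gave 0.26. For FoxD3-VP16 against FoxD3 the brightest probe set gave -0.64 and the other 1.06. Every group mean of both probe sets lay under the brightness limit, so neither can check the other. Kcnk9 was not analysed here.

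Genes that move potassium by other means were taken as lists, whose members were likewise chosen with earlier results known. The shares to read their counts against are 4.01% of tested genes for FoxD3 against the empty vector and 9.57% for FoxD3-VP16 against FoxD3, and 21% and 32% with the number blocked. Of the 11 sodium-potassium pump genes on the array 3 were tested, and 8 were dim.

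Atp1b2, a beta subunit of the pump known from neurons and glia, was among the dim genes because it was bright in 1 group only, and it was singled out after its values were seen. Its level was 4.92, 4.72, 4.42 and 4.27 with the empty vector, 8.33, 8.56, 7.85 and 8.15 with FoxD3, and 5.38, 4.32, 5.42 and 4.45 with FoxD3-VP16. All 4 FoxD3 arrays lay above all 8 others. In the fit over all 18193 genes it rose with FoxD3 by 3.64 (SE 0.35, adjusted p = 0.000145 in limma) and was lower with FoxD3-VP16 than with FoxD3 by -3.33 (adjusted p = 9.9e-05). Since all levels outside the FoxD3 group lay under the brightness limit, the sizes are uncertain. No other dim gene of these lists passed that fit without the block.

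Of the 3 tested pump genes, Fxyd5, a regulatory subunit, fell with FoxD3-VP16 against FoxD3 by -1.75 (adjusted p = 0.0212 in limma). Of 4 tested cotransporters, Slc12a7 rose by 0.99 (adjusted p = 0.0110) and Slc12a4 fell by -0.80 (adjusted p = 0.0139) in that comparison; both encode potassium-chloride cotransporters. None of these 7 tested genes passed against the empty vector without the block. With the number blocked, Fxyd5, Slc12a4 and Slc12a5 were higher with FoxD3 than with the empty vector and Slc12a7 was lower (adjusted p from 0.000612 to 0.00990). Slc12a5 was then also lower with FoxD3-VP16 than with FoxD3 (-0.64, adjusted p = 0.0172).

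Of 6 regulators of ion transport, all tested, the kinase Wnk4 rose with FoxD3 by 0.84 (adjusted p = 0.0300 in limma) and fell with FoxD3-VP16 against FoxD3 by -1.08 (adjusted p = 0.00372). Sgk1, a kinase that raises the surface density of several channels, was higher with FoxD3-VP16 than with FoxD3 by 2.77 (adjusted p = 0.0132). Against the empty vector its difference with FoxD3-VP16 was 2.06 (adjusted p = 0.219, and 0.000135 with the number blocked) and with FoxD3 -0.71 (0.678, and 0.0318 blocked). Nedd4l, a ubiquitin ligase of ion channels, passed only with the number blocked: its change was -0.72 with FoxD3 (adjusted p = 0.143, and 8.3e-05 blocked) and 0.51 for FoxD3-VP16 against FoxD3 (0.240, and 0.000477 blocked). In that last comparison the kinases Wnk1 (0.23, higher) and Oxsr1 (-0.47, lower) also passed only when blocked (0.0111 and 0.0237).

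Of 2 tested HCN and CNG channels, the hyperpolarization-activated Hcn2 fell with FoxD3-VP16 against FoxD3 by -1.22 (adjusted p = 0.0424 in limma), a call not made in the unblocked fit over all genes. Neither of 2 tested channel partners passed in any comparison. For FoxD3-VP16 against FoxD3 the median change of the tested genes was 0.13 over the pump genes, -0.33 over the cotransporters, 0.07 over the regulators and -0.42 over the HCN and CNG channels, beside -0.03 over all tested genes.

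Beside the potassium channels, 3 of 11 sodium channel genes and 4 of 24 calcium channel genes were tested. The neuronal sodium channel Scn1a rose with FoxD3-VP16 against FoxD3 by 2.10 (adjusted p = 0.000348 in limma). Against the empty vector it differed by -0.91 with FoxD3 (0.0805, and 0.00847 with the number blocked) and by 1.19 with FoxD3-VP16 (0.0762, and 0.00403 blocked). For FoxD3-VP16 against FoxD3, Scn2a (0.92) and Scn8a (0.42) passed only when blocked (0.0178 and 0.0129). No tested calcium channel gene passed without the block, and with it Cacng7 passed for FoxD3 against the empty vector (-1.10, adjusted p = 0.0444) and Cacna1c for FoxD3-VP16 against FoxD3 (-0.65, adjusted p = 0.0164).

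Of 4 genes of the REST repressor complex, which silences neuronal channel genes in other cells, Rcor2 rose with FoxD3 by 1.28 (adjusted p = 0.00197 in limma) and was lower with FoxD3-VP16 than with FoxD3 by -1.22 (adjusted p = 0.00129). Rest itself differed from the empty vector by -0.05 with FoxD3 and -0.07 with FoxD3-VP16.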

How the data were processed

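RNA was measured on 12 one-colour arrays, 4 for each of 3 vectors, with groups and replicate numbers taken from the sample titles. The values the authors deposited are linear intensities of 45101 probe sets; MAS5 is named per the submitters' processing notes, with a version not given in the sources used here, and a label names dChip. From these, log2(intensity + 16) was computed and quantile normalized, because the deposited arrays' medians spanned 0.79, over the limit of 0.5. Per the platform annotation, 34945 probe sets had 1 symbol, 932 had several and 9160 had none, and only the first kind entered; 64 control probe sets were left out. The brightest probe set stood for a gene, and the lowest 40% of genes by mean were left out.

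The 3 pairs of groups were compared with lmFit and eBayes (with trend) of limma 3.58.1, under R 4.3.3, over all 12 arrays and 10916 genes, with Benjamini-Hochberg adjustment over all of them, a threshold of 0.05, and 9 residual and 3.98 prior degrees of freedom. The number of arrays limits the precision. Same-numbered arrays deviated together from their group means, with correlations of 0.37 to 0.67 in 12 pairs. The correlations were -0.51 to 0.12 in 30 others and 0.37 to 0.54 in 6 pairs of numbers 3 and 4. Subtracting the group means forces some correlations down when others are positive, so the contrast between these ranges is partly arithmetic. The numbers were taken to pair the samples, and the labels do not say what they share. A second fit, blocked by number, is given where it changes a call of a gene named or of the transport lists.

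The genes and lists were chosen with earlier results of these data known. Named are the genes called in any fit with or without the block, the 10 highest means, tested genes with a change of at least 1 and groups apart, 7 genes given whatever their values, and the dim genes and Atp1b2, said to be chosen after their values were seen. Promoter sequences came from RefSeq. Plots used Python 3.11.15 and matplotlib 3.10.9. The alternatives were other scalings, pseudocounts, brightness limits, probe set rules, variance models, the block, and leaving out arrays.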

Additional observations from a re-analysis of the deposited data

Results flagged for a closer look

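Among 63 groups of 4 arrays checked over the 21 named potassium channel genes, 4 held an array whose gap to the nearest of the others exceeded Dixon's 95% critical value; chance gives such a gap in about 1 group in 20. All 4 outlying arrays carry the number 1. Kcnd1 had a level of 5.11 on FoxD3-VP16 array 1 against 6.85 to 7.11 on the other 3. Kcnq5 had 4.87 on FoxD3 array 1 against 6.54 to 6.88. Kcna5 had 4.42 on empty vector array 1 against 5.77 to 5.84. Kcnn1 had 5.32 on FoxD3-VP16 array 1 against 4.26 to 4.41. The part of the differences between the arrays numbered 1 and the others was not tested.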

How the results depend on the processing

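Over 25 alternatives no called change reversed. The count of changed potassium channel genes for FoxD3 against the empty vector, 0, became 1 with the values as deposited, with median centring and with the replicate block, 2 with a pseudocount of 64, with no brightness limit and without the 3 arrays numbered 1, and 3 with array weights and with no limit together with the block; it was 0 to 1 with 1 array left out. For FoxD3-VP16 against the empty vector the count of 0 became 1 with the mean of all probe sets and with the block, 2 with a pseudocount of 64, with no limit together with the block and without the arrays numbered 1, and 4 with array weights; it was 0 to 1 with 1 array left out. For FoxD3-VP16 against FoxD3 the count of 2 became 1 with median centring and with a pseudocount of 1, 0 with the lowest 60% left out, where Kcnh2 and Kcnj13 are not tested, 4 with a pseudocount of 64, with no limit and without the arrays numbered 1, and 5 with array weights and with no limit together with the block; it was 3 with the block alone, with the values as deposited (adding Kcnn4), with the mean of all probe sets (adding Kcnc2) and with no intensity trend (adding Kcnj14), and 1 to 4 with 1 array left out. With array weights 38.4%, 31.7% and 40.8% of all tested genes were called in the 3 comparisons, beside 3, 4 and 5 of the 12 channel genes. The cause of these shifts was not tested, beyond the limit setting which genes are tested. Over all genes the block moved the counts from 438, 65 and 1045 to 2297, 1217 and 3498. Kcnj13 was called for FoxD3-VP16 against FoxD3 in every alternative that tested it; Kcnh2 was not called in that comparison with median centring (adjusted p = 0.0718 in limma) or a pseudocount of 1 (0.0888). The fit without a brightness limit together with the block was chosen after seeing the data. Genes near the background have uncertain sizes: with pseudocounts of 1 and 64 the change of Kcnn1 with FoxD3 was 3.58 and 1.16.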
